A study of Homo sapiens with 32 samples.

Results

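The genes described here are HIF1A and 9 textbook targets of the hypoxia-inducible factor HIF1, namely VEGFA, ADM, CA9, SLC2A1, HK2, ENO1, LDHA, PDK1 and BNIP3. They were chosen by name, and all 10 were found among the 60107 genes of the count table. Their mRNA levels were measured by QuantSeq, which counts each transcript from its 3′ end, in 32 libraries of HEK293T cells, a human embryonic kidney line, and U2OS cells, a human osteosarcoma line. The study asked how loss of the DNA damage kinase ATM and poisoning of topoisomerase I by camptothecin (CPT) affected protein aggregation, and the RNA was taken in parallel. By its labels, the series held U2OS cells treated with CPT (libraries 26 to 29) or the vehicle DMSO (30 to 33), U2OS ATM KO cells (10, 12, 14 and 16) and U2OS wild type cells (1, 11, 13 and 15), HEK293T cells treated with CPT (2, 4, 6 and 8) or DMSO (3, 5, 7, 17 and 22 to 25), and HEK293T cells labelled ATM KO (18 to 21). By the methods, CPT or DMSO was given for 24 h and was followed by 48 h of recovery. The ATM KO and wild type U2OS cells were grown untreated for 72 h. The sample records give 24 h and 48 h for all libraries labelled HEK293T, 18 to 21 included. For U2OS libraries 26 to 33 they give only 72 h of growth. The methods give 400 nM CPT for U2OS and 100 nM for HEK293T cells. They describe an ATM inhibitor, KU-55933 at 9 µM, in HEK293T cells, so libraries 18 to 21 were taken as inhibitor-treated and are named by their label. The U2OS ATM KO cells were made with CRISPR/Cas9 and grown from picked clones, and how many clones these libraries cover is not given in the sources used here.

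HIF1 is a dimer of the oxygen-regulated subunit HIF1A and the stable subunit ARNT. In oxygen, prolyl hydroxylases of the EGLN family mark HIF1A for capture by VHL and for degradation, so HIF1A is controlled mainly as a protein and its mRNA does not report its activity. When stabilised, HIF1 binds short DNA letters called hypoxia response elements, with the core ACGTG or GCGTG, and raises genes for glucose uptake and glycolysis, for blood vessel growth, for acid removal and for lowering mitochondrial oxygen use. No library was labelled as hypoxic. Every value below is an mRNA level in cells grown in ordinary culture.

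The core letters were searched on both strands in windows from 250 bases before to 50 bases after each start site, taken from RefSeq on GRCh38.p14. Windows were found for 9 of the 10 genes, and 13 windows in all, since HIF1A, PDK1, HK2 and LDHA have 2 starts each. VEGFA had no window. All 9 genes had at least 1 match, against 52.4% of all 27305 genes with a window. The matches lay in 11 of the 13 windows, whereas 48.4% of all 35116 windows held a match and 23.1% held 2 or more. A palindromic CACGTG counts as 2 overlapping matches, 1 on each strand. The windows of PDK1, HK2, LDHA, ENO1 and BNIP3 are shown because each holds 2 or more matches, as examples of the element. For genes with 2 starts, the window with more matches is shown. Capitals mark the core letters on either strand.
PDK1, chr2:172555840-172556139, plus strand: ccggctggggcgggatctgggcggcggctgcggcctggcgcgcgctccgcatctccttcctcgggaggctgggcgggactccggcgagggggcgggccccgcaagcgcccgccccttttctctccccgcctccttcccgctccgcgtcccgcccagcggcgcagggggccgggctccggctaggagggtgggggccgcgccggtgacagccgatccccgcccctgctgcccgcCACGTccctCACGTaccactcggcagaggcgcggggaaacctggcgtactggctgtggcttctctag
HK2, chr2:74834920-74835219, plus strand: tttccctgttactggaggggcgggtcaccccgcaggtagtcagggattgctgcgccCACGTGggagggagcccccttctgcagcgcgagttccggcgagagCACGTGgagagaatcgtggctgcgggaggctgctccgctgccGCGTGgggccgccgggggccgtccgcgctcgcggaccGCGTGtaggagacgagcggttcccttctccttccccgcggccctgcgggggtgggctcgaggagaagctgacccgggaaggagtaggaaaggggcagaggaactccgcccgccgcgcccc
LDHA, chr11:18394313-18394612, plus strand: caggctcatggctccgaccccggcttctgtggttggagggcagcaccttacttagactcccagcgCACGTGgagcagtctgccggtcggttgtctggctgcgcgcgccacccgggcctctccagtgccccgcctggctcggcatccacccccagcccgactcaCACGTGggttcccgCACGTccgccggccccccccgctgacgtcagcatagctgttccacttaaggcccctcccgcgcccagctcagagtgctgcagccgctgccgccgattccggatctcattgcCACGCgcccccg
ENO1, chr1:8878637-8878936, minus strand: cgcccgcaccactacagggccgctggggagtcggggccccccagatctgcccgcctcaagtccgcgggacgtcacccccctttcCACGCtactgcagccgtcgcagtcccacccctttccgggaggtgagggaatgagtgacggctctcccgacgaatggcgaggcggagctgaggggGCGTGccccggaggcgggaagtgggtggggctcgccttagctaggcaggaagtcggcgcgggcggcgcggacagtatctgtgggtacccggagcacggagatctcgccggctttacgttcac
BNIP3, chr10:131981874-131982173, minus strand: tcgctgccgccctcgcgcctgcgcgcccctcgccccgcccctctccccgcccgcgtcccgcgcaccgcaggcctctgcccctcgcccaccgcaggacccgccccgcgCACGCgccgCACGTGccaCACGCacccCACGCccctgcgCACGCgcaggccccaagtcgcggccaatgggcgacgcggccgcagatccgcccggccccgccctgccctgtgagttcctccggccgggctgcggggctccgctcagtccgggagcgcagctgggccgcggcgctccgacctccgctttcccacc
HK2, LDHA and BNIP3 had 6 matches each in these windows, and PDK1 and ENO1 had 2 each. The windows of CA9, SLC2A1 and ADM and the upstream window of HIF1A had 1 match each. QuantSeq reads lie at the other end of the transcript, so these letters are a description of the genes and were not measured here.

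Library depth and cell line identity were examined before the comparisons. Counts assigned to genes ranged from 1232674 to 6362433 a library, so that 3 counts, taken as the floor, correspond to 0.472 to 2.43 CPM, the unit of all levels below, in which the gene counts of a library are scaled to a total of 1000000. The 64 pairs of libraries of the same label were all distinct, with a lowest chi-square per degree of freedom of 1.82. Summed over 8 U2OS marker genes, such as CAV1 and CD44, the level was 3324 to 5375 CPM in libraries 1 to 8 and 2488 to 4992 CPM in libraries 26 to 33, but 54.2 to 198 CPM in libraries 10 to 17 and 58.1 to 97.8 CPM in libraries 18 to 25. Libraries 2 to 8, labelled HEK293T, thus had the marker profile of U2OS, and libraries 10 to 16, labelled U2OS, had that of HEK293T. Library 1, labelled U2OS wild type, and library 17, labelled HEK293T DMSO, matched their labelled line but not the other libraries of the same label within 1 to 17 (11, 13 and 15, and 3, 5 and 7). Of the 5 HEK293T markers, NEFL was higher in U2OS than in HEK293T DMSO cells. The 16 libraries numbered 1 to 8 and 10 to 17 were therefore compared only by label, without library 1 among the wild type controls and without library 17 among the DMSO controls, and no direction for CPT or for ATM loss is drawn from them. Their conditions are given by label alone, and the labelled treatment or genotype may not be that of these cells.

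**Figure D1:**
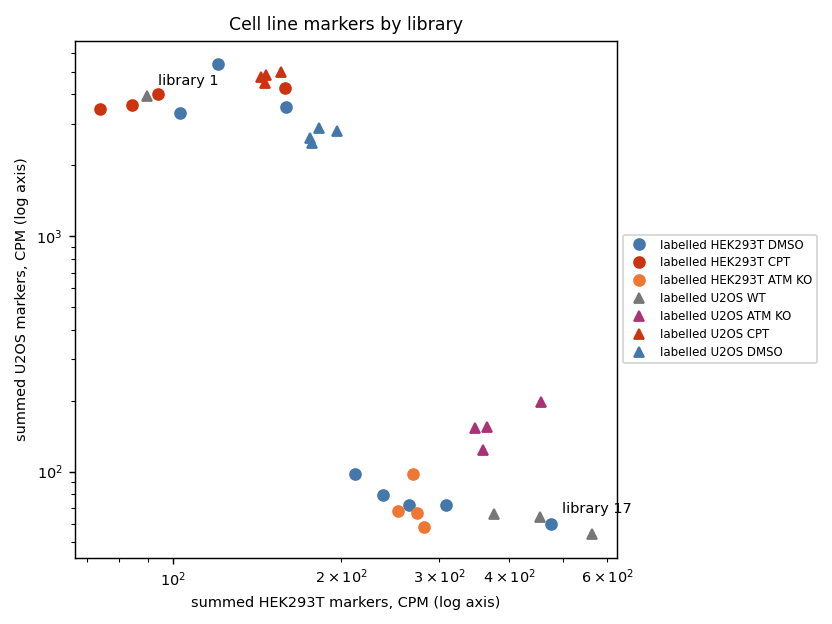
Summed CPM of 8 U2OS marker genes (vertical, log axis) against 5 HEK293T marker genes (horizontal, log axis), with 1 point for each of the 32 libraries, coloured and shaped by label. Libraries 1 to 8 lie with the labelled U2OS libraries 26 to 33, between 2488 and 5375 CPM of U2OS markers, and libraries 10 to 17 lie with libraries 18 to 25, at 198 CPM or less.

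The levels of several of these genes separated U2OS from HEK293T cells. Under DMSO, HIF1A, SLC2A1 and ADM were higher in U2OS cells (libraries 30 to 33), and VEGFA, PDK1, HK2 and BNIP3 were higher in HEK293T cells (libraries 22 to 25). CA9 was detected in U2OS cells and had no count in HEK293T cells. Of the 10 genes, 8 were called at an adjusted p below 0.05, 4 in each direction, against 62.1% of all 19739 genes tested (32% higher and 30.1% lower in U2OS). The groups did not overlap for these 8 genes, nor for 55.5% of all genes. The share of all genes is so high that the count itself says little about these genes, and the sizes are of more use.

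HIF1A, the regulated subunit itself, measured 467, 357, 370 and 335 CPM in U2OS DMSO libraries 30 to 33 and 99.6, 80.3, 108 and 105 CPM in HEK293T DMSO libraries 22 to 25. The groups lay far apart, with a fold of 4.53 (log2 fold change 2.18 ± 0.12 SE, adjusted p = 1.4e-17). Over all libraries, the 16 with a U2OS profile ranged from 273 to 467 CPM and the 16 with a HEK293T profile from 80.3 to 204 CPM.

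BNIP3, a mitochondrial protein that starts mitophagy, went the other way and had the largest difference among the genes with more than a few counts. It measured 9.88, 13.1, 7.62 and 10.6 CPM in U2OS and 109, 89.4, 133 and 110 CPM in HEK293T DMSO libraries, 9.17-fold lower in U2OS (log2 fold change -3.20 ± 0.16, adjusted p = 1.1e-18). PDK1, the kinase that holds pyruvate out of the mitochondrial citric acid cycle, was 9.39 ± 2.19 (SD, n = 4) against 45.2 ± 4.86 CPM (log2 fold change -2.05 ± 0.17, adjusted p = 1.1e-12). HK2, the inducible hexokinase, which traps glucose in the cell, was 3.90 ± 1.99 against 24.8 ± 4.36 CPM (log2 fold change -2.49 ± 0.24, adjusted p = 5.2e-11). For these 3 genes no U2OS library reached the level of any HEK293T library in this pair of groups.

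The secreted factors split. VEGFA, the main ligand for blood vessel growth, was 16.3 ± 2.70 CPM in U2OS and 64.8 ± 15.1 CPM in HEK293T DMSO cells (log2 fold change -1.77 ± 0.16, adjusted p = 1.1e-11). Over all libraries the profiles overlapped, since VEGFA ranged from 14.1 to 48.7 CPM over all 16 libraries with a U2OS profile and from 11.5 to 78.5 CPM over the 16 with a HEK293T profile. ADM, which encodes the vasodilator peptide adrenomedullin, was 6.24 ± 1.42 CPM in U2OS and 2.12 ± 0.87 CPM in HEK293T cells (log2 fold change 1.79 ± 0.32, adjusted p = 1.2e-05), on 14 to 32 counts a library in U2OS and 4 to 11 in HEK293T.

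SLC2A1, the glucose transporter GLUT1, was 95.4 ± 14.1 CPM in U2OS against 44.5 ± 12 CPM in HEK293T cells (log2 fold change 1.32 ± 0.15, adjusted p = 1.6e-09). LDHA, which turns pyruvate into lactate, and ENO1, the enolase of lower glycolysis, were the genes of the set for which no difference was called. LDHA was 491 ± 49.4 against 515 ± 88.9 CPM and ENO1 was 551 ± 49.5 against 575 ± 62.3 CPM. Their log2 fold changes were both 0.16 (adjusted p = 0.24 and 0.18) with the trimmed mean of M-values (TMM) scaling used in all main tests and turned to -0.07 and -0.06 on library totals alone, since TMM shifted the median by 0.22 here. CA9, the carbonic anhydrase of the cell surface that exports acid, had 12 counts in all in U2OS DMSO libraries, 2 to 4 a library, and none in HEK293T DMSO libraries. The level in U2OS was 4.14-fold a floor of 3 counts over the HEK293T group. The exact 95% interval of the U2OS to HEK293T ratio began at 2.88, which covers counting error only. CA9 was at 0 in all 16 libraries with a HEK293T profile and had 0 to 6 counts in the others. Cell line and library block cannot be told apart in this comparison, nor can fewer cells of a kind and less RNA per cell in any bulk sample.

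**Figure D2:**
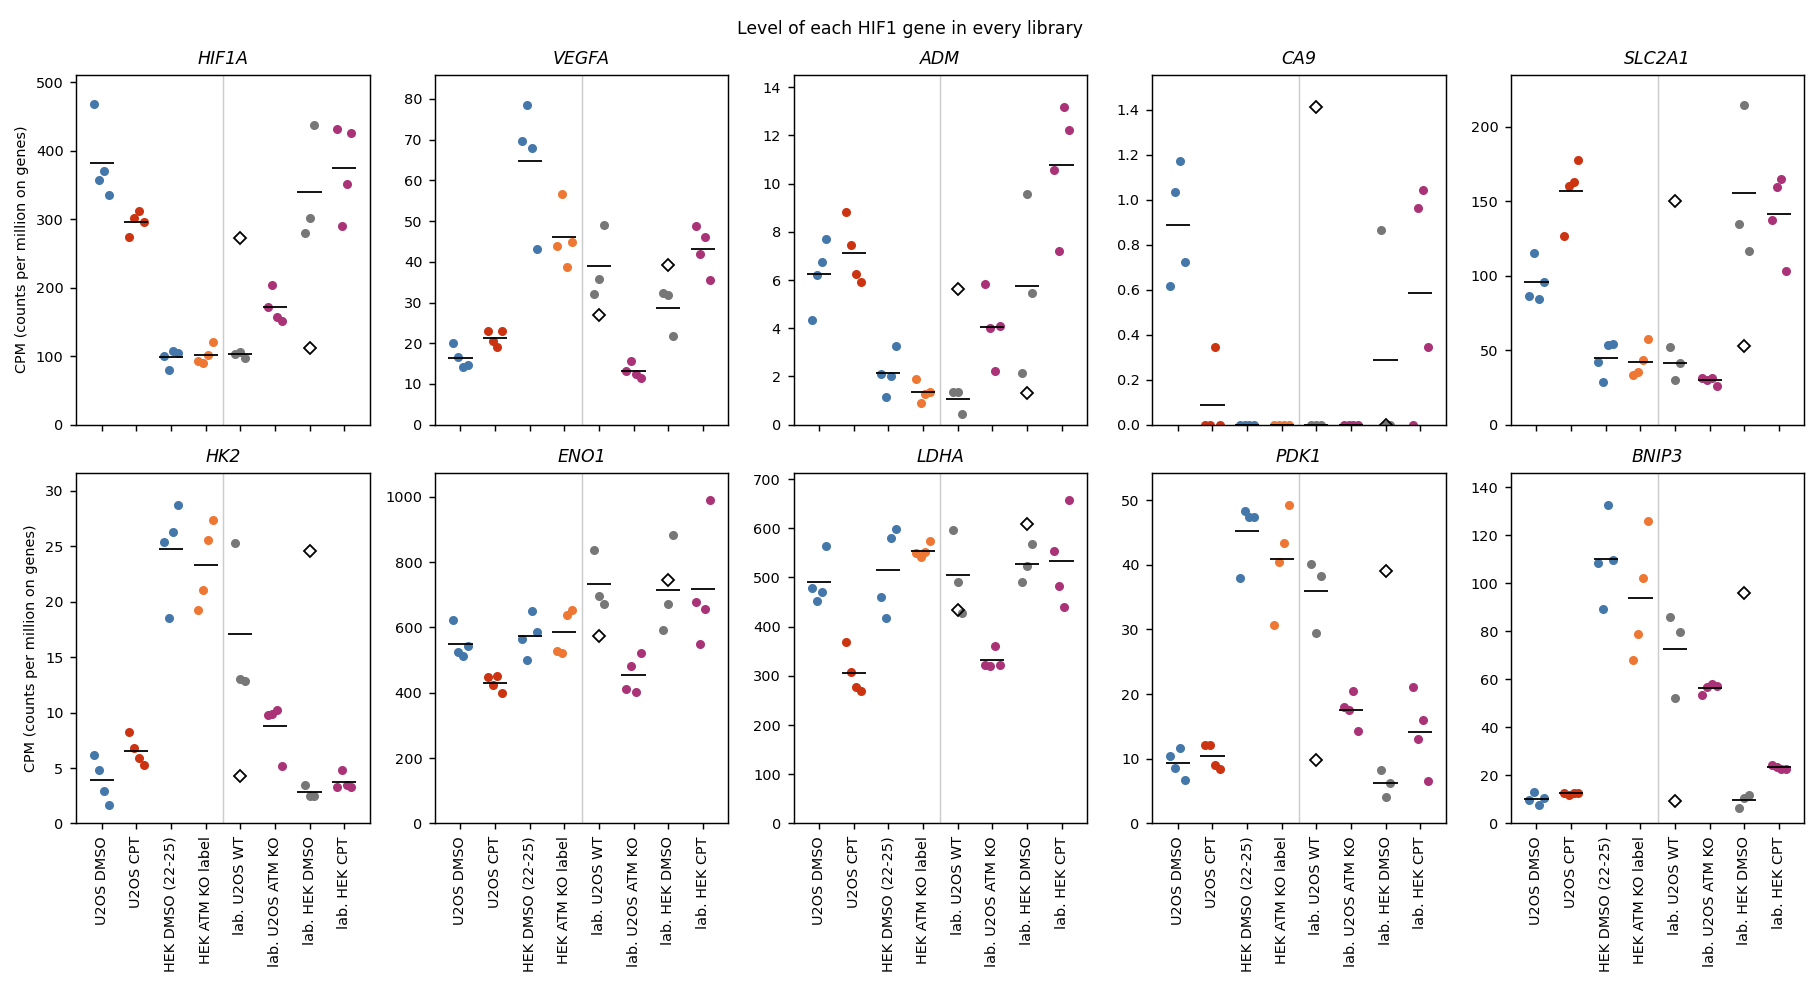
Level of each gene in CPM (vertical, linear from 0) in every library, with 1 point per library and a bar at the group mean. Groups left of the grey line are libraries 18 to 33, groups right of it are the libraries numbered 1 to 17 by label ("lab."), and open diamonds are library 1 (under wild type) and library 17 (under DMSO), which are not in the bars. HIF1A, SLC2A1 and BNIP3 follow the marker profile of the library, and in the right-hand groups VEGFA, PDK1, HK2, LDHA and ENO1 lie lower in the libraries labelled U2OS ATM KO than in libraries 11, 13 and 15.

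Other genes of the pathway also differed between the lines, as did 62.1% of all genes tested. The list counts for this pair, here and in the next paragraph, are to be read beside that share. Among 16 tested genes of HIF subunits and oxygen sensing, 4 were higher and 5 lower in U2OS (median log2 fold change -0.07, against 0.01 for all genes). EGLN1, the main prolyl hydroxylase, and VHL, which captures hydroxylated HIF1A, were lower, with log2 fold changes of -1.45 ± 0.14 and -1.26 ± 0.12, and SIAH2, a ubiquitin ligase acting on the hydroxylases, was lower by 0.72 on the log2 scale. CREBBP, a HIF coactivator, was higher by 0.96, ELOB by 0.47 and SIAH1 by 0.45. Of 23 other glycolysis genes, 8 were higher and 9 lower (median -0.18). The neuronal-type glucose transporter SLC2A3 was 144 ± 26.1 CPM in U2OS and 18.9 ± 2.16 CPM in HEK293T cells, ENO2 was 114 ± 16.2 against 19.6 ± 1.89 CPM and PDK2 was 22.9 against 9.46 CPM, whereas PFKP, PFKFB3 and PFKL, of the phosphofructokinase step, were lower in U2OS.

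Of 31 other hypoxia targets, 14 were higher and 11 lower in U2OS (median 0.08). The collagen-modifying enzymes PLOD1 and LOXL2 were 133 against 21 and 135 against 21.4 CPM. In the other direction STC2, a secreted glycoprotein, was 0.34 CPM in U2OS and 386 CPM in HEK293T cells, DDIT4, an inhibitor of mTOR signalling, was 22 against 205 CPM, and HILPDA, a lipid droplet protein, was 25.6 against 87.0 CPM. Of 8 genes of the VEGF family and its receptors, 3 were higher and 4 lower (median -0.73). The receptor FLT1 was 0.46 CPM in U2OS and 39.2 CPM in HEK293T cells, the receptor FLT4 was 6.12 against 21.3 CPM and the coreceptor NRP2 was 2.92 against 32.8 CPM. VEGFB and NRP1 were higher in U2OS, at 26.1 against 15.5 and 58.9 against 40.5 CPM. Of 5 genes for adrenomedullin receptors and related peptides, 1 was higher and 3 were lower (median -1.38).

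CPT treatment of U2OS cells moved the glucose genes in opposite directions. SLC2A1, HK2 and VEGFA rose and LDHA fell relative to U2OS DMSO cells. CA9, at 1 count after CPT, was also called lower. Thus 5 of 10 genes were called, 3 up and 2 down, against 31.9% of all 19080 genes tested, with 16.6% up and 15.3% down. In CPM, 5 of the 10 genes did not overlap between the groups (SLC2A1 higher, LDHA, HIF1A, ENO1 and CA9 lower), against 31.3% of all genes. On the TMM scale used in the tests, VEGFA, HK2 and BNIP3, all higher, were added to these, which made 8 of 10 genes against 30.1% of all genes. This comparison and that of the 2 lines share libraries 30 to 33.

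SLC2A1 measured 86.1, 115, 84.7 and 95.6 CPM in DMSO libraries 30 to 33 and 127, 160, 163 and 177 CPM in CPT libraries 26 to 29. Every CPT library was above every DMSO library, a fold of 1.85 (log2 fold change 0.89 ± 0.13, adjusted p = 1.3e-06), and the call held in each alternative fit except with the added requirement of a log2 fold change above 1. LDHA measured 479, 451, 471 and 563 CPM under DMSO and 369, 309, 277 and 269 CPM after CPT. All CPT libraries were below all DMSO libraries, 1.43-fold lower (log2 fold change -0.52 ± 0.12, adjusted p = 0.0013).

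VEGFA was 16.3 ± 2.70 CPM under DMSO and 21.4 ± 1.97 CPM after CPT (log2 fold change 0.57 ± 0.16, adjusted p = 0.0055). HK2 was lower in level, at 1.68 to 6.17 CPM (7 to 20 counts) under DMSO and 5.30 to 8.24 CPM (17 to 28 counts) after CPT, and these ranges overlap. Its log2 fold change was 0.98 ± 0.30 (adjusted p = 0.012), and the adjusted p rose to 0.054 without CPT library 26 and to 0.056 without DMSO library 33. CA9 had 12 counts in the 4 DMSO libraries and 1 in the 4 CPT libraries, a DMSO to CPT ratio of 11.1 with an exact 95% interval from 1.65 to 475 that covers counting error only. Its adjusted p of 0.033 rose to between 0.054 and 0.084 without any of CPT libraries 26, 27 and 29 or DMSO libraries 31 and 32, and to 0.082 in DESeq2.

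The calls for HIF1A, ENO1 and VEGFA depended on how libraries were scaled. HIF1A measured 274, 302, 312 and 296 CPM after CPT, below all 4 DMSO libraries at 335 to 467 CPM, and ENO1 measured 398 to 450 CPM after CPT and 512 to 622 CPM under DMSO. TMM scaling shifted the median log2 fold change by 0.17 relative to library totals. With TMM, HIF1A had a log2 fold change of -0.19 ± 0.11 (adjusted p = 0.19) and ENO1 of -0.18 ± 0.10 (adjusted p = 0.20). On library totals alone, both were called lower (-0.37, adjusted p = 0.011, and -0.35, adjusted p = 0.0089), and VEGFA was no longer called (0.40, adjusted p = 0.074).

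PDK1, BNIP3 and ADM did not pass the test after CPT. BNIP3 was 12.5 ± 0.49 against 10.3 ± 2.25 CPM (log2 fold change 0.46 ± 0.19, adjusted p = 0.072), and this became 0.55 with an adjusted p of 0.042 without DMSO library 31. PDK1 was 10.4 ± 1.96 against 9.39 ± 2.19 CPM and ADM was 7.11 ± 1.32 against 6.24 ± 1.42 CPM. ATM itself, the kinase targeted elsewhere in the series, had a log2 fold change of 0.20 (adjusted p = 0.24).

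Other genes of the pathway moved with CPT in both directions. The list counts here and in the next 2 paragraphs are to be read beside the 31.9% of all genes called. The second HIF alpha subunit, EPAS1, rose from 8.70 ± 0.76 to 22.4 ± 3.04 CPM (log2 fold change 1.52 ± 0.18, adjusted p = 4.3e-08), while ARNT2, a partner subunit, fell from 13.2 ± 1.62 to 4.6 ± 1.16 CPM. ARNT, the usual partner of HIF1A, and SIAH1 fell by 0.51 and 0.72 on the log2 scale. Within this list 1 gene was up and 7 were down of 17 tested (median -0.15, against 0.01 for all genes).

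Of 23 other glycolysis genes, 4 rose and 3 fell (median 0.18). SLC2A3 rose from 144 ± 26.1 to 256 ± 20.2 CPM, and HK1, the constitutive hexokinase, and PFKP rose by 0.70 and 0.64 on the log2 scale. GAPDH, the glyceraldehyde phosphate dehydrogenase, fell from 1691 ± 191 to 1017 ± 104 CPM, and TPI1, the triose phosphate isomerase, fell by 0.37 on the log2 scale.

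Of 31 other hypoxia targets, 11 rose and 6 fell (median 0.11). The histone demethylase KDM4B rose from 20.8 to 45.4 CPM and TMEM45A from 80.8 to 165 CPM. ZNF395 fell from 30.3 to 7.79 CPM, the ephrin EFNA3 from 25.1 to 8.39 CPM and DDIT4 from 22 to 7.26 CPM. Among 7 VEGF family genes 0 rose and 2 fell (median -0.29), and of 3 adrenomedullin-related genes the peptide ADM2 rose by 0.78 on the log2 scale and 1 fell (median -1.39). Of the 8 U2OS markers, 7 were also higher after CPT and none was lower, with summed levels of 4490 to 4992 CPM after CPT and 2488 to 2875 CPM under DMSO, and their part in these results was not tested.

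**Figure D3:**
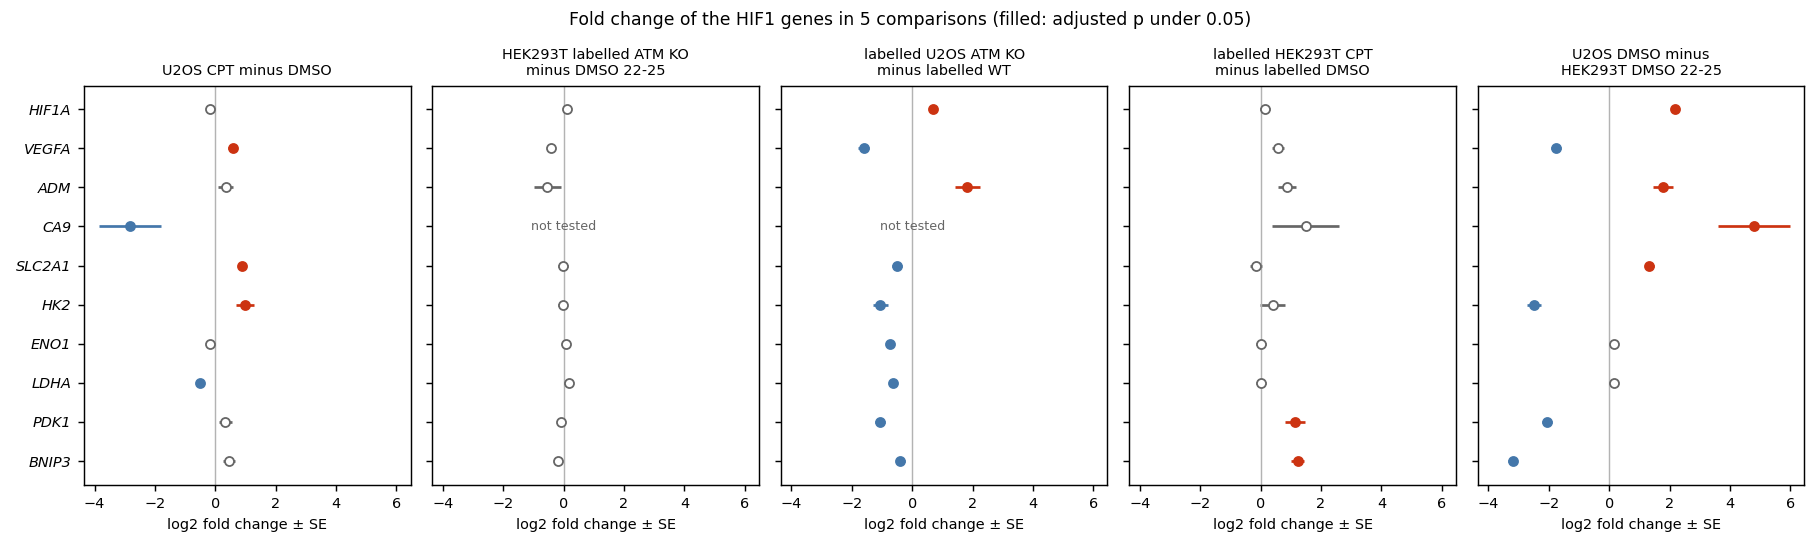
Log2 fold change (horizontal, with bars of 1 SE) of each gene in 5 comparisons on a common axis. Filled points passed an adjusted p of 0.05, red higher and blue lower in the group named before "minus", and the CA9 points rest on 0 to 6 counts a library. CPT in U2OS raised SLC2A1 (0.89) and lowered LDHA (-0.52), and no gene of the set was called for HEK293T labelled ATM KO. All 9 tested genes were called for the libraries labelled U2OS ATM KO, 2 up and 7 down, against 32.1% of all 19271 genes. Those libraries had the HEK293T marker profile.

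In HEK293T cells, none of the 9 tested genes was called between the libraries labelled ATM KO (18 to 21) and DMSO libraries 22 to 25. Over all genes, 1 of 18413 (0.00543%, lower in the libraries labelled ATM KO) was called by edgeR's quasi-likelihood test, and 1019 had an unadjusted p below 0.05. The groups overlapped for all 9 genes, whereas 3.07% of all genes did not overlap. The log2 fold changes of the 9 genes ran from -0.54 to 0.17 with a median of -0.03. Libraries 22 to 25 also served in the comparison of the 2 lines.

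VEGFA was the member with an unadjusted p below 0.05. It measured 44.0, 56.7, 38.6 and 44.9 CPM in the libraries labelled ATM KO and 69.7, 78.5, 67.9 and 43.3 CPM in the DMSO libraries, so that DMSO library 25 lay among the other group. Its log2 fold change was -0.43 ± 0.14, with an unadjusted p of 0.0052 and an adjusted p of 0.82. HIF1A was 102 ± 13.7 against 98.2 ± 12.5 CPM, LDHA was 554 ± 13.7 against 515 ± 88.9 CPM and BNIP3 was 93.7 ± 25.7 against 110 ± 17.6 CPM. CA9 had no count in any of the 8 libraries. No gene of the other pathway lists was called, with medians of 0.03 for HIF subunits and oxygen sensing, 0.06 for glycolysis and -0.01 for the other hypoxia targets, against 0.00 for all genes. ATM mRNA, at 54.5 to 74.1 against 57.8 to 82 CPM, did not pass the test (log2 fold change -0.06, adjusted p = 0.98), and an inhibitor of the kinase need not alter it.

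Between the libraries labelled U2OS ATM KO (10, 12, 14 and 16) and U2OS wild type (11, 13 and 15), which all had the HEK293T profile, 9 of the 10 genes were tested and called. HIF1A and ADM were higher and VEGFA, PDK1, HK2, ENO1, LDHA, SLC2A1 and BNIP3 were lower in the libraries labelled ATM KO. These were 2 up and 7 down, against 32.1% of 19271 genes, 15.8% up and 16.3% down. CA9 had no count. ATM mRNA was 28.8 to 39.8 CPM in the libraries labelled ATM KO and 21.2 to 34.2 CPM in those labelled wild type (log2 fold change 0.32, adjusted p = 0.15). A 3′ tag can lie outside the altered part of a gene and then checks nothing. These libraries also lacked the profile of their labelled line, and their genotype was not tested.

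HIF1A measured 172, 204, 158 and 151 CPM in the libraries labelled ATM KO and 103, 107 and 97.8 CPM in those labelled wild type. The groups did not overlap, and the fold was 1.62 (log2 fold change 0.70 ± 0.13, adjusted p = 1.6e-04). ADM, at 2.24 to 5.82 CPM (7 to 26 counts) against 0.44 to 1.35 CPM (2 to 8 counts), was 3.54-fold higher (log2 fold change 1.82 ± 0.42, adjusted p = 0.0013).

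VEGFA showed the largest fall. It measured 13.2, 15.7, 12.5 and 11.5 CPM in the libraries labelled ATM KO and 32.2, 35.7 and 49.1 CPM in those labelled wild type, 3.04-fold lower (log2 fold change -1.60 ± 0.18, adjusted p = 1.3e-07). VEGFA and ADM, which both encode secreted vascular factors, thus changed in opposite directions.

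PDK1 measured 18.1, 17.6, 20.5 and 14.3 CPM against 40.1, 29.4 and 38.2 CPM, without overlap (log2 fold change -1.08 ± 0.17, adjusted p = 2.0e-05). HK2 was 8.77 ± 2.40 (n = 4) against 17.1 ± 7.10 CPM (n = 3), with a log2 fold change of -1.06 ± 0.26 (adjusted p = 0.0023). Without wild type library 11, the highest at 25.3 CPM, its adjusted p was 0.069. ENO1 was 455 ± 57.1 against 735 ± 89.3 CPM (log2 fold change -0.73 ± 0.12, adjusted p = 4.4e-05), and LDHA was 332 ± 19.8 against 505 ± 85.6 CPM (log2 fold change -0.65 ± 0.12, adjusted p = 2.3e-04). These 4 metabolic genes did not overlap between the groups in CPM, and together with VEGFA, HIF1A and ADM they made 7 of 9 tested genes without overlap, against 35.6% of all genes.

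SLC2A1 and BNIP3 were called with smaller changes and overlapping groups. SLC2A1 was 29.8 ± 2.62 against 41.2 ± 11.1 CPM (log2 fold change -0.51 ± 0.17, adjusted p = 0.019), and its adjusted p was 0.23 without wild type library 11, 0.054 without ATM KO library 16 and 0.059 in DESeq2. BNIP3 was 56.3 ± 1.89 against 72.5 ± 17.9 CPM (log2 fold change -0.39 ± 0.14, adjusted p = 0.037) and lost its call in 10 of the alternative fits. It was lost without any of libraries 10, 11, 12, 14 and 15, with adjusted p from 0.063 to 0.25, and on library totals (adjusted p = 0.069). When library 1, which is labelled wild type but has the U2OS profile, was added to the controls, VEGFA was the 1 gene of the 9 that was called.

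The other pathway lists were divided for these libraries, in a comparison where 32.1% of all genes were called. Of 16 genes of HIF subunits and oxygen sensing, 4 were higher and 4 lower (median -0.09, against 0.03 for all genes). EGLN3, a hydroxylase that is itself a HIF target, was 14.4 ± 4.21 against 6.18 ± 1.93 CPM, EPAS1 was 22.7 ± 2.22 against 9.89 ± 2.64 CPM, and ELOC, a subunit of the VHL complex, was higher by 0.45 on the log2 scale. SIAH2, ARNT2 and VHL were lower, with log2 fold changes of -0.95, -0.63 and -0.46. Of 22 other glycolysis genes, 3 were higher and 3 lower (median -0.03). PDK4 and PDK3, relatives of PDK1, were higher by 0.80 and 0.77, opposite to PDK1, while PFKL and PFKM were lower by 0.99 and 0.80 and GAPDH was lower by 0.34, all on the log2 scale.

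Of 31 other hypoxia targets, 4 were higher and 11 lower (median -0.31). DDIT4 was 27.5 against 180 CPM (log2 fold change -2.72 ± 0.18), STC2 was 87.4 against 318 CPM, and P4HA1, a collagen prolyl hydroxylase, was 82.8 against 164 CPM. The demethylase KDM3A and the hydroxylase JMJD6 were higher by 0.58 and 0.61 and WSB1 by 0.55 on the log2 scale. Of 8 genes of the VEGF family, 3 were higher and 4 lower (median -0.12). The receptor FLT1 was 44.1 ± 5.74 against 20.3 ± 2.78 CPM, whereas FLT4, VEGFB and NRP2 were lower by 0.90, 0.89 and 0.60 on the log2 scale. Of 5 adrenomedullin-related genes, 2 were lower and none was higher (median -0.44). The summed U2OS markers, though low, were 123 to 198 CPM in the libraries labelled ATM KO and 54.2 to 66 CPM in those labelled wild type, with 2 of 7 tested markers higher. Reads outside genes were 15.8% to 18.5% of the libraries labelled ATM KO and 9.39% to 11% of those labelled wild type, without overlap. The part of the markers and of these reads in the results was not tested.

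**Figure D4:**
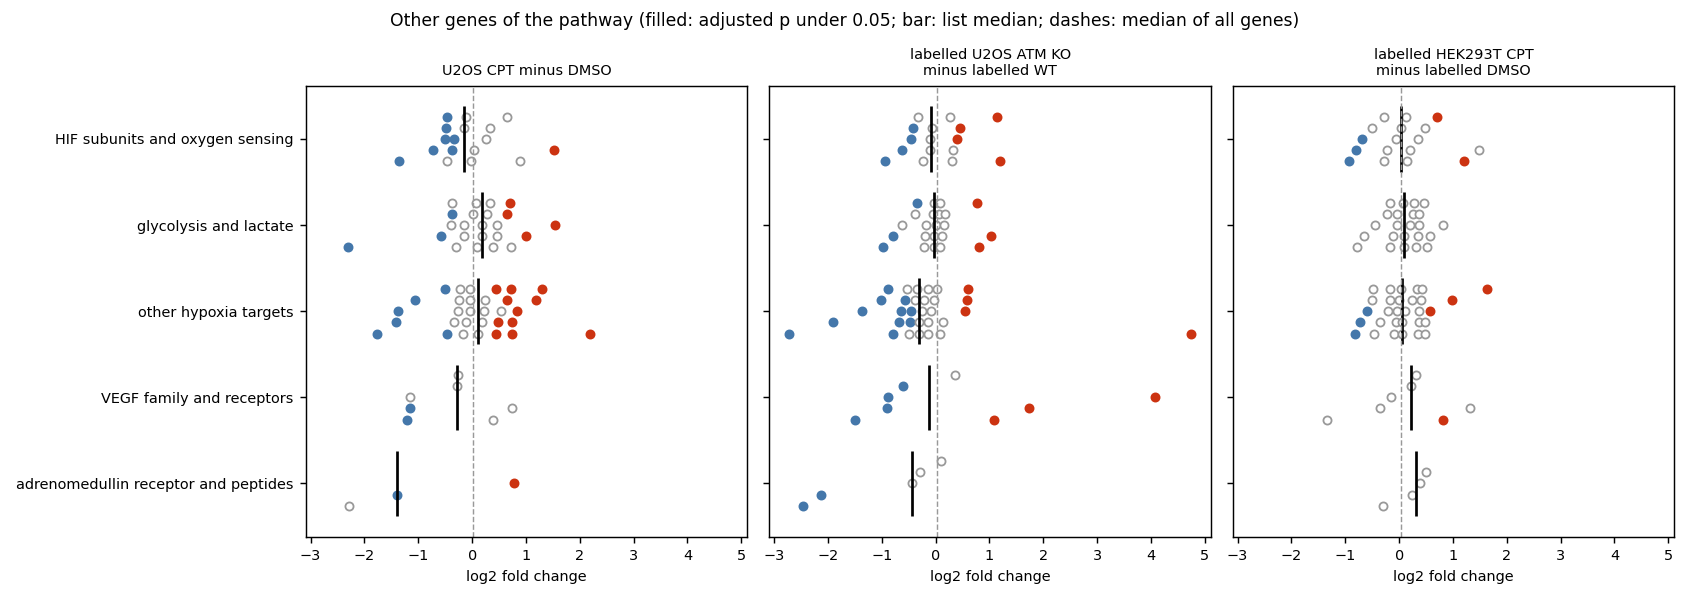
Log2 fold change (horizontal, common axis) of the other genes of the pathway in 5 lists, with 1 point per tested gene, filled red or blue where higher or lower at an adjusted p of 0.05. Black bars are list medians and dashed lines the medians of all genes. The other hypoxia targets had 11 genes up and 6 down after CPT in U2OS, 4 up and 11 down in the libraries labelled U2OS ATM KO, and 3 up and 3 down in those labelled HEK293T CPT. In the same order, 31.9%, 32.1% and 10.4% of all genes were called.

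Between the libraries labelled HEK293T CPT (2, 4, 6 and 8) and HEK293T DMSO (3, 5 and 7), which all had the U2OS profile, BNIP3 and PDK1 were higher. These 2 of 10 genes were called, both up, against 10.4% of 18515 genes (4.89% up and 5.55% down). BNIP3 and VEGFA did not overlap between the groups, as was the case for 17.5% of all genes, and on the TMM scale BNIP3 alone of the 10 did not overlap, against 19.5% of all genes. BNIP3 and PDK1 both act on mitochondria. The glycolytic enzymes ENO1 and LDHA had log2 fold changes within 0.01 of 0, with SEs of 0.17 and 0.16.

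BNIP3 measured 24.3, 23.6, 22.6 and 22.9 CPM in the libraries labelled CPT and 6.49, 10.4 and 12 CPM in those labelled DMSO. There was no overlap, the spread among the first 4 was small, and the fold was 2.33 (log2 fold change 1.22 ± 0.22, adjusted p = 1.6e-04). PDK1 measured 21.1, 13, 16 and 6.53 CPM against 8.22, 4.11 and 6.27 CPM, so that library 8 lay among the DMSO libraries (log2 fold change 1.12 ± 0.33, adjusted p = 0.022). Its adjusted p was 0.061 to 0.13 without any of libraries 2, 5, 6 and 7 and 0.054 with edgeR's own filter on low counts.

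VEGFA and ADM lay near the threshold. VEGFA measured 48.7, 41.9, 46.0 and 35.6 CPM against 32.4, 31.8 and 21.8 CPM, without overlap in CPM (log2 fold change 0.57 ± 0.20, adjusted p = 0.058), and its adjusted p was 0.0073 without library 8 and 0.049 without library 3. ADM was 10.8 ± 2.62 against 5.73 ± 3.72 CPM (log2 fold change 0.87 ± 0.31, adjusted p = 0.063), and it was called in 5 of the alternative fits. Its adjusted p was 0.0056 without library 5, 0.048 without library 4 and 0.031 on library totals. HIF1A was 374 ± 67.3 against 340 ± 85.6 CPM and SLC2A1 was 141 ± 28.2 against 155 ± 51.9 CPM, neither of them called. CA9 had 10 counts in 4 libraries against 2 counts in 3, a ratio of 3.23 with an exact 95% interval from 0.69 to 30.4. HK2 had 4 to 20 counts a library and was not called. With library 17 added to the controls, none of the 10 genes was called by the same test, and the log2 fold change of BNIP3 became -0.19. Library 17 has the HEK293T profile, with BNIP3 at 95.7 CPM. That fit thus mixes the 2 cell line profiles and does not show how stable these calls are.

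Among the pathway lists for these libraries, 2 genes of HIF subunits and oxygen sensing were higher and 3 lower of 17 (median 0.03, against 0.03 for all genes). The share of all genes called was 10.4%. EPAS1 was higher by 0.70 on the log2 scale, and ARNT2, RBX1 of the VHL complex and the coactivator EP300 were lower by 0.93, 0.80 and 0.69 on the log2 scale. Of 23 other glycolysis genes none was called, and 4 had an unadjusted p below 0.05. Of 30 other hypoxia targets, 3 were higher and 3 lower (median 0.04). ZNF395 was 63.9 against 20.9 CPM, FAM162A, a mitochondrial protein, was 114 against 57.2 CPM, and BNIP3L, the close relative of BNIP3, was 169 against 113 CPM. BHLHE40 and the transferrin receptor TFRC were lower by 0.82 and 0.73 on the log2 scale. The coreceptor NRP1 was 101 ± 20.6 against 57.1 ± 7.90 CPM and was the 1 called gene of 7 in the VEGF family, and none of 4 adrenomedullin-related genes was called. ATM had a log2 fold change of -0.31 (adjusted p = 0.34). Of the 8 U2OS markers, CAV1, CD44 and CRYAB were higher and THBS1 and TGFBI lower in the libraries labelled CPT, and the summed levels overlapped. Of 3 tested HEK293T markers, PAX2 was higher, and the part of these markers in the results was not tested.

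Across all 32 libraries the gene most like each member in profile was sought among 9667 genes. By Pearson correlation of log2 CPM, HIF1A was most like FGD4 (r = 0.978), BNIP3 like NOM1 (r = 0.971), SLC2A1 like SLC52A2 (r = 0.956), HK2 like SLC6A15 (r = 0.950), PDK1 like SLC18B1 (r = 0.944) and ADM like CCDC80 (r = 0.931). The best matches were weaker for VEGFA (F2R, r = 0.857), ENO1 (TCF7L1, r = 0.836), LDHA (NR1D2, r = 0.809) and CA9 (IGFBP5, r = 0.783). The libraries fall into 2 cell line profiles, which these correlations share, so they are given as descriptions.

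Reads of pseudogenes were few, but some other related loci held more. BNIP3 has 44 listed pseudogenes, which held 124 counts over all libraries against 6036 for the gene. The pseudogenes of LDHA, ENO1 and HIF1A held 6, 1 and 3 counts against 55494, 71185 and 25928. The loci HK2-DT and SLC2A1-DT, which carry the names of members, held 542 and 419 counts against 1398 for HK2 and 9628 for SLC2A1. HK2-DT thus reached 38.8% of the counts of HK2. Antisense loci held 130 counts for ENO1, 33 for PDK1 and 9 and 3 for 2 loci at HIF1A. Whether strand was used in counting is not given in the sources used here.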

How the data were processed

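RNA from HEK293T and U2OS cells was made into QuantSeq 3′ libraries from 150 ng of RNA, and the authors counted reads per Ensembl gene with the Lexogen FWD UMI pipeline (version 2.3.1). The deposited values are raw counts of 60107 genes in 32 libraries, and their genome build is not given in the sources used here. The 92 ERCC spike-in entries (3 counts in all) and 5 summary entries were left out, and reads outside genes were 9.39% to 39.9% of a library. Symbols matched 56104 identifiers. The study describes 4 independent repeats per experiment.

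Each comparison was fitted on its own libraries with edgeR 4.0.16 (R 4.3.3), using TMM scaling, the quasi-likelihood test on genes that exceeded 1 count in 2 or more of its libraries, and Benjamini-Hochberg adjustment over all genes tested. A gene was called at an adjusted p below 0.05. Alternatives were the likelihood ratio test, which the study used, and, separately, the main test with an absolute log2 fold change above 1 also required. DESeq2 1.42.0, other scalings and filters, and leaving out each library were further alternatives. The SE of a log2 fold change was taken from its F statistic. Levels are CPM, computed from gene counts, and intervals and floors cover counting error only.

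All 10 members were described. From each pathway list up to 3 called genes in each direction with the largest change and a mean log2 CPM above 3 were named. A gene that this rule names is not reported here. Members and lists were chosen with earlier results of these data known. Start site windows came from RefSeq. Tested on simulated data, the fit recovered 94% of 100 genes changed by a log2 of 1 in the U2OS CPT comparison (19021 genes) and 95% in that of the libraries labelled U2OS ATM KO (19517 genes). This recovery is not given by expression level, so it need not hold for genes on few counts, such as CA9, HK2 and ADM.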

Additional observations from a re-analysis of the deposited data

Results flagged for a closer look

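In groups of 4 to 8 libraries, 8 of 68 tests found a library whose gap to the nearest other library exceeded Dixon's 95% critical value. This number cannot be set against a chance rate of 1 in 20. For CA9, 1 library with 1 or 2 counts stood against 0 in the others, where the gap equals the range whatever the noise. The groups labelled U2OS wild type and HEK293T DMSO also mix the 2 cell line profiles. Library 1 stood apart from the other 3 libraries labelled U2OS wild type, with HIF1A at 273 CPM against 97.8 to 107 CPM and CA9 at 1.41 CPM against 0. Among libraries labelled U2OS ATM KO, library 16 had HK2 at 5.19 CPM against 9.80 to 10.2 CPM, and library 14 had LDHA at 361 CPM against 319 to 323 CPM. Among libraries labelled HEK293T CPT, library 4 had HK2 at 4.81 CPM against 3.24 to 3.47 CPM, on 10 counts. Among the 8 libraries labelled HEK293T DMSO, library 3 had CA9 at 0.87 CPM (2 counts) against 0 in the others. Among U2OS CPT libraries, library 28 had CA9 at 0.35 CPM (1 count) against 0, and library 27 had BNIP3 at 11.8 CPM against 12.7 to 12.8 CPM.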

How the results depend on the processing

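No paired analysis was possible because the labels carry only a serial number for each library, which no other library shares, and nothing that ties a library of one group to one of another. Requiring an absolute log2 fold change above 1 as well left 1 of the 10 genes and 2569 of all genes called for CPT in U2OS. That gene was CA9, on 1 count after CPT against 12 under DMSO. The same cutoff left 4 of the 10 genes and 2562 of all genes for the libraries labelled U2OS ATM KO. It left 826 of all genes for those labelled HEK293T CPT, 7872 between the lines and 0 for HEK293T labelled ATM KO. In this last comparison the likelihood ratio test called 5 genes, no filter 16, all 8 libraries labelled HEK293T DMSO 0, and leaving out a library 0 to 97 (97 without library 21). Leaving out a library gave 3 to 5 of the 10 genes for CPT in U2OS, and 1 to 3 of the 10 and 1242 to 2526 of all genes for the libraries labelled HEK293T CPT, where edgeR's filter left 1 member and no filter gave 4. Adding libraries of the other cell line profile changed most: library 1 left 1 member and 778 genes for the libraries labelled U2OS ATM KO, and library 17 left 0 members and 39 genes, and all 8 DMSO libraries 0 members, for those labelled HEK293T CPT.

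Directions turned mainly for values near 0 or with those added libraries. For HEK293T labelled ATM KO against all 8 DMSO libraries the log2 fold changes were -1.08 for HIF1A, 0.47 for PDK1, 0.52 for HK2, -0.017 for LDHA, -0.24 for ENO1 and 0.43 for BNIP3. Leaving out a library there gave -0.19 to 0.082 for SLC2A1, -0.18 to 0.011 for PDK1 and -0.15 to 0.051 for HK2. For the libraries labelled HEK293T CPT, adding library 17 gave 0.16 for SLC2A1, -0.96 for HK2, 0.061 for ENO1 and -0.19 for BNIP3, and using all 8 DMSO libraries gave 0.81 for SLC2A1, -0.77 for PDK1, -1.83 for HK2, 0.34 for ENO1 and -1.26 for BNIP3. LDHA there was -0.0021 in DESeq2 and -0.0017 with DESeq2-type size factors, and ENO1 was 0.016 with edgeR's filter, 0.016 with no filter and 0.0088 on library totals. Leaving out a library gave -0.34 to 0.18 for SLC2A1, -0.080 to 0.083 for LDHA and -0.16 to 0.13 for ENO1. Between the lines LDHA was -0.067 and ENO1 -0.063 on library totals, a scaling chosen after seeing the data. The cause was not tested. For CA9, HK2 and ADM, depth limits what can be called.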
